A study of Mus musculus with 4 samples.

Results

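The epidermal differentiation complex is a gene cluster on mouse chromosome 3 that encodes most of the proteins of the outermost, cornified layer of the skin. It was taken here as all protein-coding genes with bodies inside chr3:90400000-93700000 (mm10), an interval of 3.3 Mb that also holds a few unrelated neighbours, and 76 genes met this rule among 21883. Its open chromatin was taken as the ATAC-seq peaks with a summit in the interval: 112 of 68192 peaks in the wild-type (WT) list and 126 of 63545 in the double-knockout (dKO) list. Overlapping WT and dKO peaks were merged into 141 regions, of 79122 in all. At the left edge the first member lay 12.7 kb inside and the next region outside lay 7.10 kb away. At the right edge these distances were 91.6 kb and 610 kb.

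ATAC-seq marks open DNA by the insertion of sequencing adapters by a transposase. Stem cells of the hair follicle were sorted from dorsal skin of 4 males aged 70 postnatal days, whose follicles were resting in second telogen. All 4 mice carried floxed alleles of Nfib and Nfix and a floxed YFP reporter at R26, and the 2 dKO mice also carried Sox9-CreER, a tamoxifen-dependent recombinase driven from the promoter of Sox9, which is active in the follicle. The sources used here do not give the tamoxifen dose or its time. Live cells without Sca-1 and with integrin alpha 6 and CD34 were taken from both genotypes, and the dKO cells were also YFP-positive, so the gates differed by this marker. NFIB and NFIX are DNA-binding nuclear factor I proteins, and the comparison asks how accessibility depends on them. There was 1 peak list per genotype, so no spread between mice is known, the differences below were not checked across mice, and genotype, gate and library cannot be told apart. In such bulk data, more cells with an open site and more opening per cell cannot be told apart.

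The cornified envelope genes are silent or low in stem cells and are switched on as keratinocytes leave the basal layer. Involucrin, loricrin and the small proline-rich (SPRR) and late cornified envelope (LCE) proteins are crosslinked under the cell membrane by transglutaminases. Filaggrin and the other fused-type S100 proteins bundle keratin or bind the envelope, the S100 proteins are small calcium-binding proteins with roles from cytoskeletal dynamics to innate immunity, and AP-1 factors are known activators of several of these promoters.

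The lists were not of equal depth. The lowest local background of the WT list was 5.29 and that of the dKO list 2.73, which is 1.94 times lower, and the median pileup, the number of reads or fragments stacked at a summit, was 73 and 38. Values are therefore given per list as the deposited pileup and as the percentile of the peak's −log10 q within its own list, where 100 is the strongest, and percentiles from lists of different length do not show a change. As a check of the sorted cells, 13 of 14 stem cell marker genes had a region within 1 kb of a start in either list, the exception being Trp63. Of 7 suprabasal epidermal markers 5 had one in the WT and 6 in the dKO list, where Tgm3 was the added gene, and of 7 immune markers 1 had one in the WT list (Cd74) and 0 in the dKO list. Of 5 fibroblast markers 2, of 3 endothelial markers 1, of 4 melanocyte markers 3 and of 3 sebocyte markers 2 had one in each list. Of all protein-coding genes 61.5% had one in the WT and 61.4% in the dKO list, so such a region does not by itself identify a cell type. How much cells of other types add to the regions below was not tested.

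The promoters of 6 members show the letters that the results below refer to. They are the 250 bases before the gene start (RefSeq, GRCm38.p6, the assembly that mm10 names), printed 5′ to 3′ in the direction of the gene, with capitals marking the TATA-box letters TATAAA and the AP-1 letters TGANTCA, where N is any base. Ivl, Sprr1a and Crnn had an open region at the start in both lists, Sprr1b and S100a8 in the dKO list only, and Lce1a1 in neither.
Ivl, chr3:92573736-92573985, minus strand: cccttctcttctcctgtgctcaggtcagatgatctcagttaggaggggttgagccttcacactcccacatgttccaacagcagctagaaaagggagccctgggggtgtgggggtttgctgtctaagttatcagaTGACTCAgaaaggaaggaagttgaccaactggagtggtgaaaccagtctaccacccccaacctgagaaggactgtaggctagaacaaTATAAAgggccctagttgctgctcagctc
Sprr1a, chr3:92485882-92486131, minus strand: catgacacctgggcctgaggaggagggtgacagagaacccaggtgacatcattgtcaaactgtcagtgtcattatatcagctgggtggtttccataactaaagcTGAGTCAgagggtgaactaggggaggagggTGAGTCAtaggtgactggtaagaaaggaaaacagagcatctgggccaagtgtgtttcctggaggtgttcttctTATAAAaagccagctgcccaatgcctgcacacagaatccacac
Crnn, chr3:93144539-93144788, plus strand: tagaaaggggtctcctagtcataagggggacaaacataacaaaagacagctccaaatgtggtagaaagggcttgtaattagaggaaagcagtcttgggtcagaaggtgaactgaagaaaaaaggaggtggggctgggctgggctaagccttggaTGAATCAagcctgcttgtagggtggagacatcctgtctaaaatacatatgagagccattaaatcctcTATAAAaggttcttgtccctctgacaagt
Sprr1b, chr3:92438780-92439029, minus strand: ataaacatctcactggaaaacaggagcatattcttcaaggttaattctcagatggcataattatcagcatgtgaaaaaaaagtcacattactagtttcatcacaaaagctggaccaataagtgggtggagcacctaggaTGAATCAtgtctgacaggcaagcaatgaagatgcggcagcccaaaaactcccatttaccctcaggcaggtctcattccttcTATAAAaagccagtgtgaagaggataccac
S100a8, chr3:90668821-90669070, plus strand: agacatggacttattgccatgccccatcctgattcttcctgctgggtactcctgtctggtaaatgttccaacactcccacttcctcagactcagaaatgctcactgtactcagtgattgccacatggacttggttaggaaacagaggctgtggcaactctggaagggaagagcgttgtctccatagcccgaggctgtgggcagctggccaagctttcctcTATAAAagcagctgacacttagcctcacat
Lce1a1, chr3:92648308-92648557, minus strand: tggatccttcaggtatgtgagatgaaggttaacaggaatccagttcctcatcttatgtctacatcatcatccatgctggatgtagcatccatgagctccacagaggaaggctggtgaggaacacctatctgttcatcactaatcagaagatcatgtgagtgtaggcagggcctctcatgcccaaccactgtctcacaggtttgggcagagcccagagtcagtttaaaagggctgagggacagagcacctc
In Ivl the TATA-box letters began 29 bases and the AP-1 letters 116 bases before the start. Sprr1a held AP-1 letters at 146 and at 116 bases before the start, Sprr1b at 111 and Crnn at 96. S100a8 held TATA-box letters at 30 bases before the start and no AP-1 letters, and Lce1a1 held neither.

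Of the 141 regions 93 were shared by both lists, 19 were found in the WT list only and 29 in the dKO list only. Over all 79122 regions the WT list had the larger number of its own, with 21.2% WT-only and 14.2% dKO-only regions. In the complex the order was the opposite: 13.5% of regions were WT-only (95% Wilson interval 8.80 to 20.1) and 20.6% were dKO-only (14.7 to 28.0). The WT-only share minus that of regions elsewhere was −7.70 percentage points, with a normal 95% interval of −13.3 to −2.06. The dKO-only share was 6.36 points above it, with an interval of −0.316 to 13.04 that includes no difference. These intervals cover counting error only and take regions as independent, which neighbours in 1 cluster may not be. The interval of the WT-only difference included no difference with lists of equal length (−5.19 points), at a q value of 1e-05 or less (−4.35 points) and among single-list peaks of the stronger 50% (−1.80 points). At that q value the counts also changed order, to 25 WT-only and 21 dKO-only regions. These were 19.4% and 16.3% of the complex's regions, against 23.7% and 11.3% elsewhere, so both differences kept their sign. The dKO-only difference at that q value was 4.97 points, with an interval of −1.41 to 11.3 that includes no difference. Among single-list peaks of the stronger 50% the dKO-only difference was 0.100 points (−2.73 to 2.93). Shared regions made up 66.0% of the complex (57.8 to 73.3) and 64.6% of regions elsewhere.

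**Figure D1:**
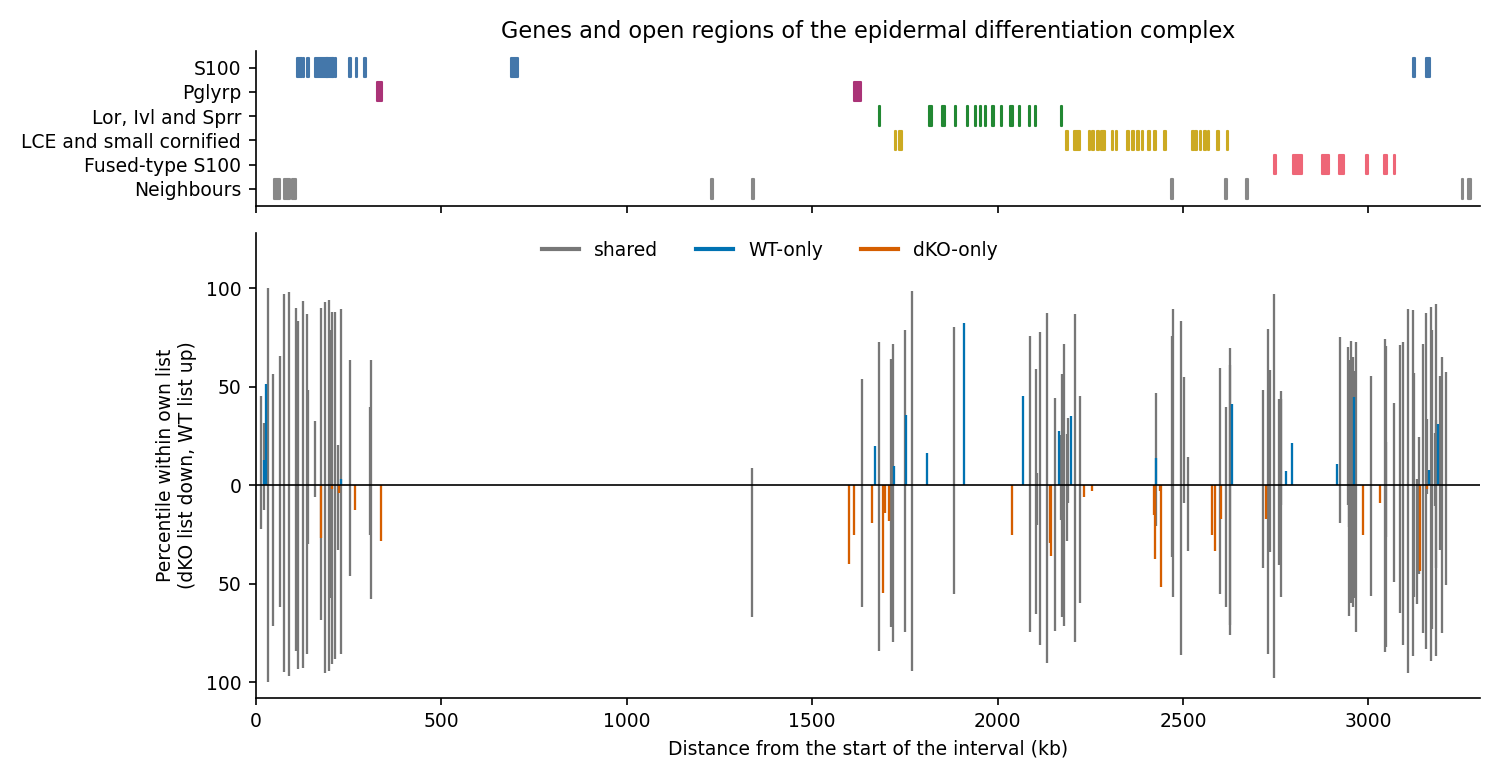
Genes (top, by subfamily) and open regions (bottom) along the interval, with distance from its start in kb on the x axis. Each line is 1 region, drawn up to its percentile of −log10 q in the WT list and down to that in the dKO list, with shared regions in grey, WT-only in blue and dKO-only in orange. The S100 genes at the left are followed by a stretch of 998 kb without a region, and the single-list regions are mostly short.

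Among runs of 2 or more genes of a subfamily, open regions were densest at the S100 genes, and long stretches with many genes held no peak. The interval as a whole held 4.27 regions per 100 kb, against 2.99 over all chromosomes. The run from S100a1 to S100a9 held 10.3 per 100 kb and the pair S100a11 and S100a10 held 22.7, whereas the run of fused-type genes from Crnn to Tchhl1 held 6.72. From Sprr2a1 to Ivl there were 4.19 per 100 kb. From Smcp to Lce1l, a run of 16 genes, there were 5.24, and from Lce3a to Lce3f there were 2.94. The longest stretch without a peak was chr3:90738027-91736431, which is 998 kb long and separates the S100 block from the cornified envelope genes; it held S100a7l2 and Gm36323. Of the 8 stretches over 50 kb between neighbouring regions, the one over the Lce1 genes was 168 kb long and held 11 of them, from Lce1b to Lce1k. A stretch of 129 kb held 7 Sprr2 genes from Sprr2b to Sprr2k, and one of 121 kb held both Flg2 and Flg. No called peak means only that no site passed the authors' threshold at these depths.

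Most gene starts of the complex had no called region within 1 kb. Of 76 genes 25 (32.9%) had a region within 1 kb of a start in the WT and 27 (35.5%) in the dKO list, against 61.5% and 61.4% of all protein-coding genes. Starts came from 71 RefSeq promoter entries of 66 genes, and for the other 10 genes, Kprp and S100a10 among them, either end of the body was used. The 2 WT-only regions at starts lay at one end of Kprp and one end of S100a10. All 25 genes of the WT list were also open in the dKO list, though at a q value of 1e-05 or less 1 gene was open in each list alone. The added 2 genes of the dKO list were S100a8 and Sprr1b (2.63% of genes), beside 1.22% of all genes with a start region in the dKO list only and 1.34% in the WT list only. Among regions at gene starts, 5 of 34 in the complex were dKO-only (14.7%, 6.45 to 30.1) and 2 were WT-only (5.88%, 1.63 to 19.1), against 2.97% and 4.48% elsewhere. The 5 dKO-only regions lay at S100a8, Sprr1b, one end of Pglyrp3 and one end of Kprp, which had a pair of them, and they stood between the 12.4 and the 37.5 percentile of the dKO list.

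**Figure D2:**
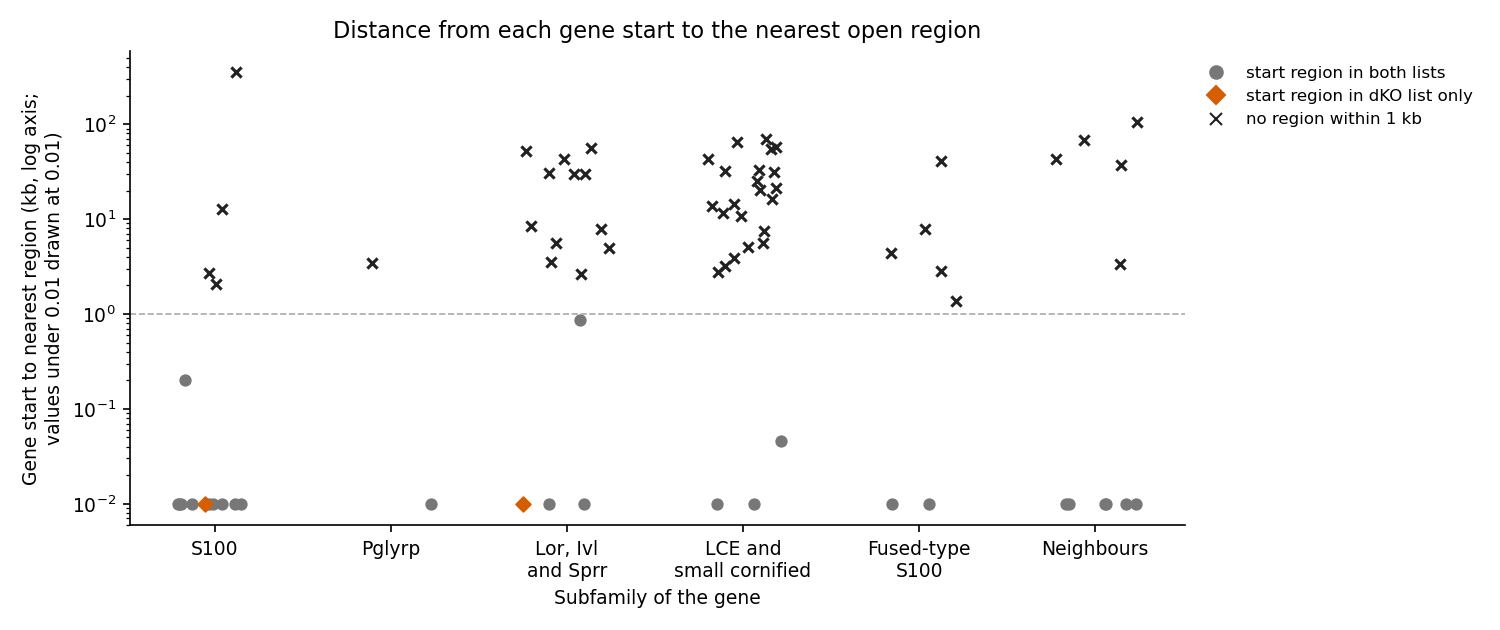
Distance in kb (log axis, with values under 0.01 kb drawn at 0.01) from each of the 76 gene starts to the nearest open region, by subfamily, where 1 point is 1 gene. Points under the dashed line at 1 kb have a start region, in both lists (grey circles) or in the dKO list only (orange diamonds, S100a8 and Sprr1b); crosses have none, and the LCE column is nearly all crosses.

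Regions inside gene bodies were few, and most of the complex's regions lay between genes. Away from starts, 13.5% of its regions lay inside a gene body and 62.4% between genes, against 42.2% and 40.1% elsewhere. These shares were not adjusted for how much of the sequence gene bodies cover. The longest body in the complex, that of S100a3, was 42.4 kb. Between genes 20 of 88 regions were dKO-only (22.7%) and 15 WT-only (17.0%), against 18.4% and 22.5% elsewhere. Inside gene bodies 4 of 19 were dKO-only (21.1%) and 2 were WT-only (10.5%), against 15.0% and 26.9% elsewhere. Member peaks were of ordinary strength, with a median percentile of 58.6 in the WT and 55.3 in the dKO list. Shared regions had a median percentile of 65.1 in the WT and 64.7 in the dKO list, while WT-only regions had 21.5 and dKO-only regions 19.1, beside 21.96 and 19.1 for such regions elsewhere. Summits of shared regions lay a median of 41 bp apart, against 45 bp elsewhere.

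By subfamily of the nearest gene, dKO-only regions outnumbered WT-only regions in 4 of 6 groups. The LCE and small cornified proteins had 11 dKO-only and 5 WT-only regions among 31. Loricrin, involucrin and the SPRR genes had 6 and 5 among 21, the S100 genes 6 and 3 among 41, and the peptidoglycan recognition genes 3 and 0 among 4. The order was the opposite at the fused-type S100 genes, with 3 and 4 among 29, and at the neighbours, with 0 and 2 among 15. The dKO-only share of the LCE group was 35.5% (21.1 to 53.1), and its interval lies above the 14.2% of all regions. That of the scaffold group was 28.6% (13.8 to 49.96), an interval that includes 14.2%. In the S100 group it was 14.6% (6.88 to 28.4), near the share of all regions, and the WT-only share was 7.32% (2.52 to 19.4) against 21.2%. The order of these counts changed with the settings. At a q value of 1e-05 or less the LCE group had 7 regions of either kind, the S100 group 3 dKO-only and 5 WT-only, and 2 groups in place of 4 had more dKO-only regions. With genes only up to 20 kb away, the scaffold group had 4 dKO-only and 5 WT-only regions, and 3 groups had more dKO-only regions. Only 2 of 29 dKO-only and 2 of 19 WT-only regions were in the stronger 50% of their list. With those alone, 1 group had more dKO-only regions.

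**Figure D3:**
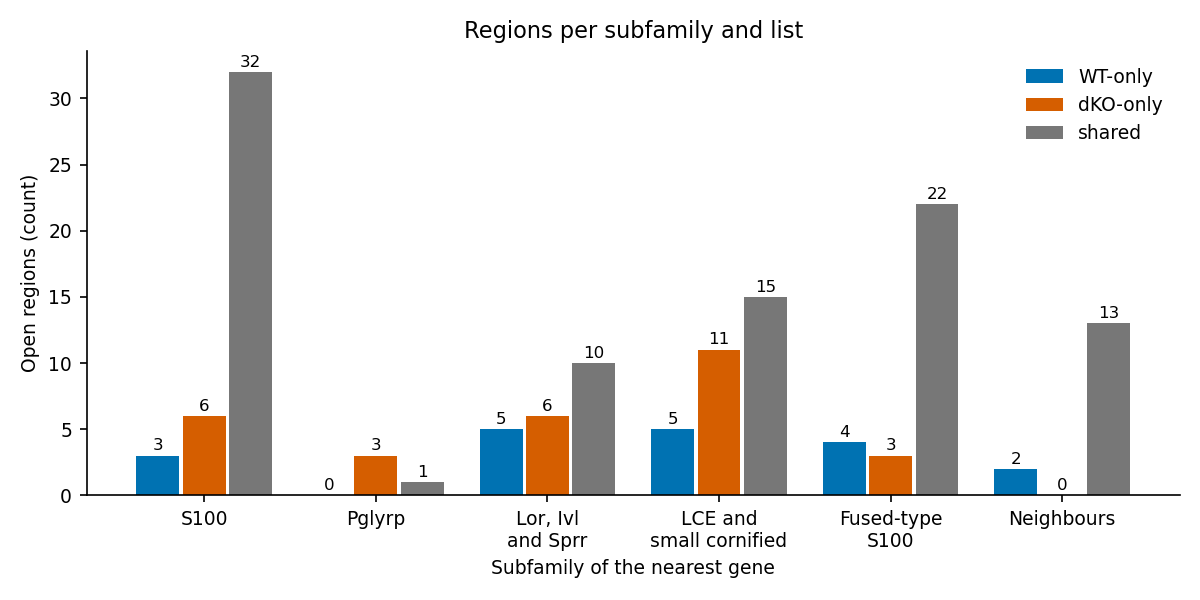
Number of open regions (y axis) by the subfamily of the nearest gene (x axis), found in the WT list only (blue), in the dKO list only (orange) or in both (grey). The LCE bars stand at 5, 11 and 15, and the S100 bars at 3, 6 and 32.

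Of the subfamilies, the S100 genes had the most regions and the most genes with a start region. Of 15 genes 10 had a start region in the WT and 11 in the dKO list, 10 of them in both. These shares are near the 61.5% and 61.4% of all protein-coding genes. The regions' median percentile was 65.0 in the WT and 57.6 in the dKO list. By −log10 q in the WT list the strongest lay inside S100a3, which encodes a calcium- and zinc-binding protein of the hair cuticle. This region, chr3:90597617-90598563, had a pileup of 720 in the WT and 291 in the dKO list (percentiles 94.3 and 94.2). A region at one end of S100a14, at chr3:90525551-90527569, had 521 and 214 (93.6 and 93.1), and another at S100a3, chr3:90585409-90588173, had 721 and 360 (92.9 and 95.5). All 3 stood near the same place in both lists. The S100a3 body also covers S100a2, so regions there may belong to either.
At the start of S100a4, known from motile and mesenchymal cells, the pileup was 607 in the WT and 262 in the dKO list. At S100a6, calcyclin, it was 514 and 212, and at S100a11, an annexin-binding protein, it was 431 and 178. At one end of S100a10, which encodes the partner of annexin A2, it was 476 and 169. These 4 regions stood between the 83.4 and the 91.0 percentile of their lists. The start of S100a7a, a psoriasin-related gene, was weaker, at 79 and 27 (percentiles 63.7 and 46.0).
S100a8 and S100a9 encode the subunits of calprotectin, an antimicrobial protein of neutrophils and of stressed keratinocytes. The start of S100a8 lay in a dKO-only region, chr3:90668822-90669076, with a pileup of 14 (percentile 12.4). S100a9 had no region within 1 kb of its start, and the nearest lay 12.8 kb away, with a shared pair at chr3:90708528-90709086 and chr3:90709834-90710499. Which cells gave the S100a8 region was not tested.
The other dKO-only regions of this group were chr3:90576608-90576832 in S100a3 with a pileup of 23, chr3:90605586-90605820 in S100a4 with 61, chr3:90623557-90623775 at 9.25 kb from S100a6 with 23, chr3:93538471-93538985 at 12.4 kb from S100a11 with 29, and chr3:93557925-93558168 in S100a10 with 46. The WT-only regions were chr3:90630935-90631202 at 16.7 kb from S100a6 with a pileup of 47, chr3:93563259-93563675 in S100a10 with 51, and chr3:93586259-93586744 at 21.9 kb from S100a10 with 61. The highest percentile among these 8 and the S100a8 region was 43.5, near S100a11, and the regions in S100a4 and S100a10 with pileups of 61 and 46 stood at 1.80 and 1.70, with folds of 1.67 and 1.79 over local background. S100a10 was the nearest gene of 14 regions, the largest number of any gene in the complex, and 11 of them were shared.

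Of the peptidoglycan recognition genes, whose products bind bacterial cell walls, Pglyrp4 had 1 dKO-only region in its body, chr3:90737356-90738026, with a pileup of 19. Pglyrp3 had dKO-only regions at chr3:92000483-92000978, 11.7 kb away, with a pileup of 24, and at one end of the gene, chr3:92012069-92012511, with 18. A shared region at the other end, chr3:92033024-92034980, had 72 in the WT and 54 in the dKO list. With 4 regions in all, this group's shares are uncertain.

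Loricrin and involucrin, the main late and early scaffold proteins of the cornified envelope, both had shared regions at the gene. The Lor region, chr3:92080544-92082280, had a pileup of 155 in the WT and 124 in the dKO list (percentiles 72.9 and 84.1); it lay in the body, 862 bp from the start, and the 300 bases around the start overlapped no region. The Ivl start region, chr3:92573340-92574172, had 82 and 60 (56.2 and 66.9), and covered the promoter printed above. A second shared region in the Ivl body, chr3:92571258-92572107, had 41 and 23.
Around Lor the dKO list had 3 regions of its own and the WT list 1. The strongest dKO-only region of the whole complex was among them, chr3:92090767-92091612 at 8.05 kb from Lor, with a pileup of 37 and a percentile of 54.7. The others were chr3:92060724-92061170 with 16 and chr3:92095320-92095669 with 17, and the WT-only one was chr3:92069817-92070239 with 27. Around Ivl the dKO-only regions were chr3:92540361-92540830 with a pileup of 20 and chr3:92544719-92544980 with 22, and the WT-only one was chr3:92565548-92565820 with 32. A shared region 16.2 kb from Ivl, chr3:92554319-92555175, had a pileup of 47 in the deeper WT list and 55 in the dKO list (percentiles 44.3 and 74.1).

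The SPRR genes encode crosslinking bridges of the envelope, and several are induced by stress. Of 14 SPRR genes only Sprr1a had a start region in both lists, chr3:92485607-92486885, with a pileup of 182 in the WT and 72 in the dKO list (percentiles 75.7 and 74.6). Its neighbour Sprr1b had a dKO-only region over the promoter printed above, chr3:92438157-92439033, with a pileup of 18 (percentile 25.3). Both promoters held TATA-box and AP-1 letters.
None of the 10 Sprr2 genes had a start region, and the distance to the nearest region ran from 3.57 kb at Sprr2a3 to 56.3 kb at Sprr2f. For Sprr2a1 and Sprr2a2 all 50-base windows of the promoter occur in the promoter of another gene, and 88.8% of those of Sprr2a3 do, so reads of 50 bases there may not be placed uniquely and a missing peak at these 3 genes is uncertain. The other 7 Sprr2 promoters share no such window. Sprr2d, Sprr3 and Sprr4 lay 30.2, 8.50 and 2.64 kb from the nearest region.
The strongest WT-only region of the complex lay between Sprr2a3 and Sprr2b, 8.44 kb from the latter, at chr3:92307607-92308916. It had a pileup of 195, a deposited −log10 q of 142 and a percentile of 82.2 in the WT list, and no dKO peak overlapped its 1310 bp. Nearby, at 3.84 kb from Sprr2a3, the shared region chr3:92281184-92281737 had 132 in the WT and 33 in the dKO list (percentiles 80.5 and 55.2). The strongest region of the group, chr3:92532061-92532917 at 32.0 kb from Sprr4, was shared at 247 and 144 (87.3 and 90.1). The other WT-only regions were chr3:92467224-92468305 at 9.04 kb from Sprr3, with 48, and chr3:92210342-92210827 at 5.25 kb from Sprr2a1, with 25.

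The LCE genes, which are expressed late in the granular layer, had almost no start regions. Of 21 LCE genes only Lce6a had a start region, chr3:92620901-92621852, with a pileup of 48 in the WT and 37 in the dKO list. None of 14 Lce1 and none of 6 Lce3 genes had one. Lce1a1 lay 5.64 kb and Lce3a 13.8 kb from the nearest region, and at Lce1g the distance was 69.8 kb. The Lce3 promoters shared no 50-base window with another promoter and those of 2 of 13 Lce1 promoters shared at most 2.79%; copies elsewhere in the genome were not looked for. The 3 strongest regions of the group by −log10 q in the WT list were shared and lay outside the Lce1 and Lce3 runs. The first, chr3:92169428-92170608 at 27.3 kb from Lelp1, had a pileup of 553 in the WT and 173 in the dKO list (percentiles 98.4 and 94.6). The next were chr3:92609288-92610313 in Lce6a with 221 and 77, and chr3:92150185-92151257 at 7.97 kb from Lelp1 with 151 and 68.
Among dKO-only regions of this group 8 of 11 had an LCE gene as the nearest gene, beside 2 of 5 WT-only, 7 of 15 shared and 17 of all 31 regions. Near Lce1 genes these were chr3:92653947-92654183 with a pileup of 11, chr3:92838583-92838883 with 11 and chr3:92839468-92840572 with 31, the last at 9.93 kb from Lce1l and at the 51.9 percentile. Near Lce3 genes they were chr3:92978640-92978933 with 18, chr3:92986752-92987102 with 21 and chr3:93002652-93003022 with 17. Of the 6 regions near Lce3 genes the other 3 were shared and 0 were WT-only, beside 21.2% of all regions. With so few regions these shares are uncertain. Near Lce6a the dKO-only regions were chr3:92600629-92600903 with 9 and chr3:92632342-92632629 with 12.
Kprp, which encodes a proline-rich protein of the upper epidermis, had dKO-only regions at chr3:92822164-92822753 with a pileup of 21 and at chr3:92823490-92823815 with 31, both at one end of the gene. At its other end lay a WT-only region, chr3:92827255-92827694, with 29, and a shared one, chr3:92825638-92826518, with 58 in the WT and 23 in the dKO list. The last dKO-only region was chr3:92106600-92106859 near Prr9 with 21. The other WT-only regions were chr3:92120367-92120705 near Prr9 with 29, chr3:92153292-92153739 near Lelp1 with 50, chr3:92598117-92598938 near Lce6a with 38 and chr3:93031422-93031697 near Lce1m with 59. The highest percentile among these 16 single-list regions was the 51.9 near Lce1l.

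The fused-type S100 genes had 22 shared regions among 29, a share of 75.9% (57.9 to 87.8), and the 64.6% of all regions lies inside this interval. Crnn, encoding cornulin, was the most open, with a start region at chr3:93144258-93145277 of pileup 468 in the WT and 251 in the dKO list (percentiles 97.3 and 98.0). A wide region 15.5 kb from it, chr3:93127742-93130829, was shared at 280 and 165. Tchhl1, related to trichohyalin, was the only other gene of the group with a start region, at 44 and 29. Tchh, encoding trichohyalin of the inner root sheath, had 3 shared regions in its body, and the nearest lay 1.39 kb from its start.
Flg, encoding filaggrin, was the nearest gene of no region, and its start lay 40.8 kb from one. Flg2 had 2 WT-only regions and no other, chr3:93176637-93176923 at 20.5 kb with a pileup of 20 and chr3:93192382-93192877 at 4.64 kb with 28. Hrnr, encoding hornerin, had 7 shared and 2 WT-only regions and no dKO-only one. Inside its body, chr3:93322604-93323511 had a pileup of 133 in the WT and 16 in the dKO list (percentiles 75.5 and 19.1), and at 11.8 kb chr3:93345036-93345688 had 155 and 18 (69.9 and 10.3). The WT-only regions near Hrnr were chr3:93314336-93314626 with 22 and chr3:93360039-93360317 with 97. Rptn, encoding repetin, had 2 shared regions. The dKO-only regions of the group were chr3:93122922-93123251 near Crnn with a pileup of 24, chr3:93385451-93385766 near Rptn with 18 and chr3:93431607-93431943 near Tchh with 13.

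The strongest region of the interval in either list lay among the neighbours. It was the start of Ints3, whose body reaches out of the interval, and had a pileup of 838 in the WT and 417 in the dKO list (percentiles 99.9 and 99.8). Snapin had 503 and 212, and Ilf2 had 488 and 185. The WT-only regions of the group both lay in Ints3, at chr3:90420853-90421263 with 23 and chr3:90426287-90427297 with 60. By the naming rule Crct1, a cysteine-rich gene of the complex, and 2310050C09Rik fall into this group. At the start of 2310050C09Rik, chr3:92869926-92870748, the pileup was 246 in the WT and 27 in the dKO list (percentiles 75.9 and 36.6), and at 2.47 kb, chr3:92872227-92873131, it was 368 and 41 (89.3 and 56.9). The folds over local background were closer, at 5.91 in the WT and 5.35 in the dKO list for the first region. For the second they were 8.84 and 7.91. At Crct1 the pileup was 42 and 45 (percentiles 39.6 and 61.7).

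Shared regions did not all hold the same place in both lists. Regions with the largest gaps in percentile were picked after their values were seen. The 4 largest towards the WT list were the pair at Hrnr given above, a region at 21.8 kb from Lce3a, chr3:92902976-92904084, with a pileup of 61 in the WT and 13 in the dKO list (percentiles 54.8 and 9.06), and the start of 2310050C09Rik. At this start the folds over local background were close, at 5.91 in the WT and 5.35 in the dKO list. The 3 largest towards the dKO list were chr3:91736432-91737143 near Gm35185, with 21 in the WT and 45 in the dKO list (8.90 and 67.1), chr3:93530292-93531070 at 4.39 kb from S100a11, with 18 and 44 (3.01 and 60.1), and the region 16.2 kb from Ivl. These 3 regions and the one at Crct1 had a higher pileup in the dKO list, although the WT list was the deeper. Pileups are not scaled for depth, so how many shared regions were higher in either list is not given.

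**Figure D4:**
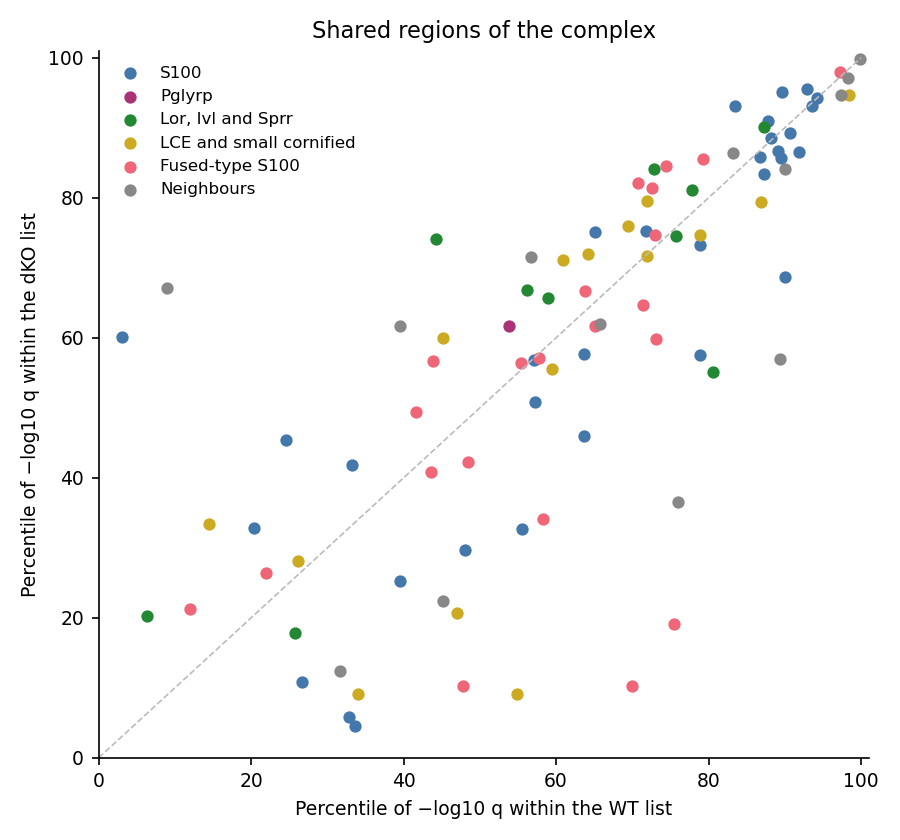
Percentile of −log10 q within the WT list (x axis) and within the dKO list (y axis) for the 93 shared regions, coloured by subfamily; the dashed line marks equal percentiles. The Hrnr pair stands below the line, at 75.5 against 19.1 and 69.9 against 10.3.

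TATA-box and AP-1 letters were more frequent in member promoters than in all promoters, although most member promoters lacked AP-1 letters. AP-1 letters (TGANTCA, found alike on both strands) were in 20 of 71 member promoters, 28.2%, against 6.99% of 21262 RefSeq promoters of protein-coding genes, and TATA-box letters (TATAAA on either strand) in 40.8% against 12.6%. Each promoter here has 300 bases, 250 before the start and 50 after. The median GC content was 46.7% in member promoters and 56.3% in all promoters, and the letter shares were not adjusted for it. The letters were frequent in the scaffold and the fused-type genes. Of 16 promoters of Lor, Ivl and the SPRR genes 11 held AP-1 letters and 12 TATA-box letters. In 11 of these 16 promoters TATAAA began 20 to 40 bases before the start, which 2.53% of all promoters show. The 10 Sprr2 promoters gave 7 of the AP-1 and 7 of the TATA-box matches. They belong to related genes side by side, so they are not independent cases, and none had a start region. Of 7 fused-type promoters 5 held AP-1 letters (71.4%) and 4 TATA-box letters (57.1%). None of 20 LCE promoters held AP-1 letters, and of 16 S100 promoters 3 did.
AP-1 letters were in 8 of 25 member promoters with a start region (32.0%) and in 12 of 46 without one (26.1%). The CpG count per promoter had a median of 1, against 13 over all promoters, and reached 26 at Npr1, 21 at Chtop and 18 at Ilf2, which are neighbours with open starts, and 15 at S100a11. Promoters without a start region had at most 5. The NFI palindrome was in 0 of 71 member promoters and 0.0329% of all promoters, and its shorter form TTGGCA on either strand was in 16.9% against 13.1%. A match is a description of letters, and absence says only that these letters are not in the window.

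**Figure D5:**
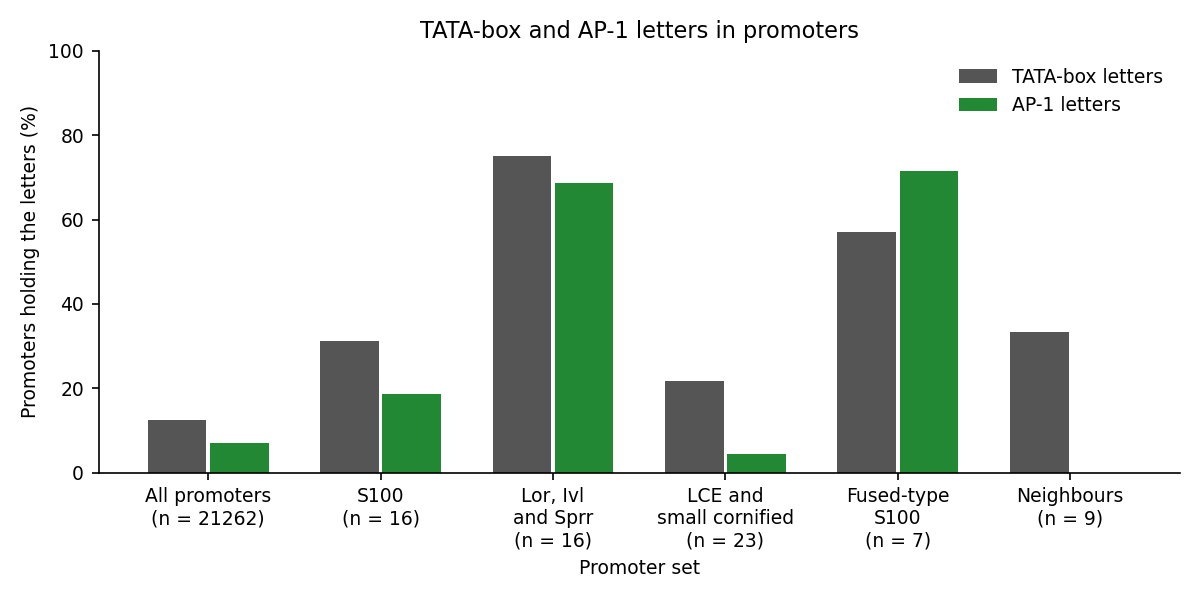
Percent of promoters (y axis) that hold TATA-box letters (grey) or AP-1 letters (green) in all RefSeq promoters and in each subfamily with promoter entries, with the number of promoters under each label. The scaffold genes stand at 75.0% and 68.8%, and the LCE and small cornified group at 21.7% and 4.35%.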

How the data were processed

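Each genotype has 1 deposited table of peaks, laid out as MACS2 writes it, per the file headers, and shared by both of its mice, per the labels. The submitters' processing notes list Bowtie2 2.2.9, Picard and MACS2 with no role. How mice were pooled, reads shifted and duplicates handled is not stated there. Pileup, the signal at the summit, stands in the authors' tables as whole numbers. Fold enrichment is a ratio in the authors' tables, with 1 added to both pileup and background. Columns 7 and 9, deposited by the authors, hold −log10 p and −log10 q; their header cells are damaged, so they were read by position. A Poisson −log10 p recomputed from pileup and background lay within 0.01 of column 7 for 99.98% of the WT list and 99.997% of the dKO list, among values below 250.

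Peaks overlapping by at least 1 bp were merged with Python 3.11.15, numpy 2.4.6 and pandas 2.3.3, after leaving out 5 WT and 3 dKO mitochondrial peaks. Overlap counts equalled those of bedtools 2.31.1, and the merge was tested on simulated data. Each region was assigned to the protein-coding gene whose body was closest, up to 100 kb away. Wilson and normal 95% intervals (scipy 1.17.1) cover counting error only, and no p-value was computed. Regions or genes named are those with a single-list region at an end, the 3 strongest regions by WT −log10 q in each subfamily, each single-list region, and a list of well-known genes. The members and lists were chosen with earlier results of these data known. The alternatives were another overlap or summit rule, a stricter q value (1e-05), equal list lengths, WT thinned to the dKO background, single-list peaks of the stronger 50%, members by any overlap, genes within 20 kb, and starts within 2 kb or 500 bp.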

Additional observations from a re-analysis of the deposited data

How the results depend on the processing

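With summits within 200 bp in place of overlap, WT-only regions numbered 29 and the dKO-only difference from regions elsewhere was 7.46 points, with an interval of 0.411 to 14.5 that excludes no difference. With single-list peaks of the stronger 50%, 2 WT-only regions and 2 found in dKO alone were left, the WT-only difference was −1.80 points, and 1 subfamily had more dKO-only regions. The dKO-only difference was then 0.100 points, with an interval of −2.73 to 2.93 that includes no difference. At a q value of 1e-05 or less the WT-only difference was −4.35 points, and 2 subfamilies had more dKO-only regions. With lists of equal length it was −5.19 points. Thinning WT to the dKO background left the counts at 19, 29 and 93, and members by any overlap gave the same counts. The thinning kept 66817 of 68192 WT peaks and did not call peaks again, so it is a weak check of depth. Genes with a start region stayed within 1.5 times of 25 and 27 under all settings run, but those open in the dKO list alone numbered 1 in place of 2 at that stricter q value, where 1 in place of 0 was open in the WT list alone, and 0 with single-list peaks of the stronger 50%. No paired analysis was possible because the mice carry different numbers and there is 1 list per genotype. Leaving out a mouse was not possible for the same reason.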
